A study of Mus musculus with 12 samples.

Results

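Loci of the mouse genome that collect abundant structural RNA reads in total RNA libraries were examined in mice without Mettl5. The 5 loci were Gm23935, CT010467.1, Gm42418, Gm26917 and AY036118. They had been chosen by symbol because such loci carry many counts in these libraries, so their abundance is a description and was not tested. Of the 5 symbols, 2 matched a row among the 55487 genes of the count table, Gm23935 (ENSMUSG00000076258.1) and CT010467.1 (ENSMUSG00000106106.3). The other 3 symbols matched no row and are not analysed here.

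Liver and brain of 6 mice gave 12 libraries. The KO mice A, C and F carried a whole-body deletion. It was made by crossing mice with a floxed exon 2 of Mettl5 to a CMV-cre line on a C57BL/6 background. The floxed allele was made in hybrid ES cells of C57BL/6 and another strain, and a later generation was backcrossed to C57BL/6. How much of the other strain remained in these mice is not given, so a mixed background may have added to the differences between mice. The control mice B, D and E are labelled WT, although the study also names heterozygous mice as controls of its RNA sequencing. The labels give no age or sex, and each of the 4 groups held 3 mice. The study counts them as 3 pairs of a KO and a control mouse, but which mice form a pair is not given in the labels, so genotypes were compared unpaired. Mice E (WT) and F (KO) had at most 20 counts of Y-linked genes in a library and the other 4 mice at least 2112.

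Ribosomal RNA makes up most of the RNA of a cell. RNA polymerase I transcribes the 18S rRNA of the small subunit and most rRNA of the large subunit as a single long precursor from repeated gene clusters, RNA polymerase III makes 5S rRNA, and mitochondria transcribe their own rRNAs. METTL5, together with its partner TRMT112, adds a methyl group to an adenosine near the 3′ end of 18S rRNA. The libraries were made from total RNA with a kit that removes much of the ribosomal sequence before sequencing, so a share of counts is what remained after that step and is not the amount of rRNA in a cell.

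The CT010467.1 row covers chr17:39846353-39848201 on the plus strand of mm10 and is 1849 bases long. RefSeq places an 18S rRNA related sequence, Rn18s-rs5, at nearly the same bases. The GENCODE M21 annotation gives an older version of CT010467.1 as an rRNA gene on the minus strand of the same place, which extends to 39848827. The row contains the UAACA motif that METTL5 methylates in 18S rRNA. The motif's adenosine is at position 1812 of the row, counted from 1 at its 5′ end, and 37 bases before its last base. The letters TAACA occur 3 times in the row, and the longer GTAACAA occurs once, at this place. The 60 bases around it, chr17:39848138-39848197 on the plus strand, are shown with the motif in capitals because they tie the row to the substrate of the deleted enzyme.

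CT010467.1: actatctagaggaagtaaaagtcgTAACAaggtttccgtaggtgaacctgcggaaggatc

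Counts over this row cannot show whether the adenosine was methylated. The row's GC content was 55.4%.

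The 3 symbols without a row were annotated beside it on chromosome 17. Gm42418 covers bases 39846958 to 39848788 on the plus strand, and its annotated span shares 1831 bases with that of the older CT010467.1. The transcript of Gm42418 and the CT010467.1 row share 1244 bases by genome position and strand, so their sequence there is the same by construction. AY036118 covers 39847113 to 39848035 on the minus strand, within the Gm42418 span. Gm26917 covers 39843013 to 39846341 on the plus strand and ends just before the CT010467.1 row begins. A further row without a symbol, ENSMUSG00000118642.1, covers 39848103 to 39848827 on the minus strand, and its exons share 97 bases with CT010467.1 on the opposite strand. Its 4 exons are those of an older transcript of CT010467.1. It collected 12241 counts over the 12 libraries, and since the counting used strand, these are reads of the opposite direction.

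**Figure D1:**
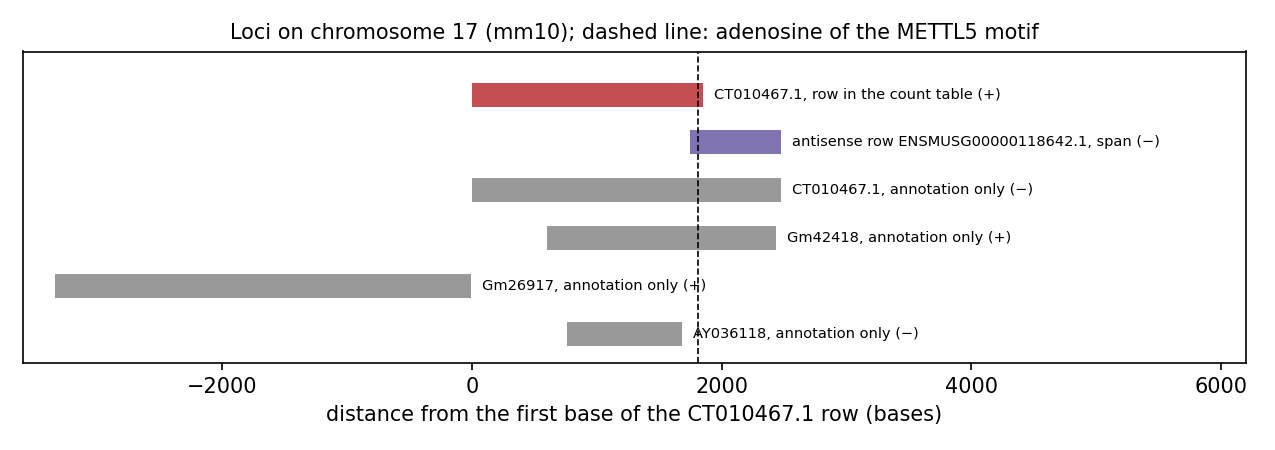
Map of the CT010467.1 region of chromosome 17 in mm10, with the distance in bases from the first base of the row on the horizontal axis and strand signs in parentheses. The red bar is the CT010467.1 row, the violet bar the span of the antisense row, and grey bars are loci known here only from the annotation; the dashed line, at position 1812 of the row, lies close to its 3′ end and within the antisense span.

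Gm23935 covers chr16:11144125-11144181 on the plus strand. It is 57 bases long and is annotated as a miRNA gene. It lies within the span of Zc3h7a, a gene for a zinc finger protein on the opposite strand, and overlaps none of its exons. Over the 12 libraries Zc3h7a had 7914 counts in all, fewer than Gm23935 had in any single library. The 6 other genes within 50 kb, among them Txndc11 and Rsl1d1, had between 4 and 6341 counts each. The 57 bases had a GC content of 73.7%. None of their 38 windows of 20 bases occurred in the 361 annotated rRNA and member transcripts searched, which held no 28S rRNA, so the sequences used here do not show Gm23935 to be part of an rRNA. The same 57 bases are annotated at 2 further places, and at Gm24187 with a single substitution, G11A (position counted from 1 at the 5′ end, base of Gm23935 first). They are shown with differing bases in capitals because a read that lay within the 57 bases would match the identical loci equally.

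Gm23935: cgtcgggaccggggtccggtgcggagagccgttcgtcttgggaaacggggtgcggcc
Gm24270: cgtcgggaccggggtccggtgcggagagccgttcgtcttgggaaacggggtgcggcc
Gm24187: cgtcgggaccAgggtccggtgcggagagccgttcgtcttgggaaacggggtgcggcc
Gm23388: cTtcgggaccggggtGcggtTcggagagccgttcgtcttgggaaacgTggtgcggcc

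Gm24270 lies at chr9:56223715-56223771 on the minus strand, Gm24187 at chr13:9834469-9834525 on the minus strand, and Gm23388, with 4 substitutions, at chr8:85112012-85112068 on the minus strand. Gm24245, at chr4:139338304-139338360 on the plus strand, is identical to Gm23935. Gm25911, at chr1:167340369-167340424 on the minus strand, is a 56-base relative. These rows were far lower than Gm23935. Over the 12 libraries Gm24270 had 63931 counts, Gm24187 had 18084, Gm25911 had 1693, Gm24245 had 522 and Gm23388 had 160. Reads were sequenced to 100 bases, longer than any of these rows, and then trimmed. The length of the reads counted here was not measured, and the division of reads among identical copies is uncertain.

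Before the genotypes were compared, the libraries were checked. The liver libraries held between 16145754 and 21623180 counts and the brain libraries between 14403309 and 18365114, and at this depth the widest 95% Wilson interval of the share of all counts of either locus, or of both together, spanned 0.0291 percentage points. These intervals cover counting error only. The 5 hepatocyte markers summed to at least 57150 CPM (counts scaled to the size of a library) in every liver library and to at most 34.8 CPM in brain, and the 5 brain markers to at least 2836 CPM in brain and at most 20.3 CPM in liver. Mettl5 stood at 14.9, 8.11 and 8.33 CPM in WT liver and at 3.85, 3.63 and 4.06 CPM in KO liver. In brain it stood at 9.07, 5.86 and 5.01 CPM in WT and at 3.33, 3.95 and 3.82 CPM in KO. All KO libraries were thus below all WT libraries of their tissue, but the adjusted p was 0.383 in liver and 0.373 in brain (edgeR). Composition differed between genotypes without overlap in both tissues, in opposite directions. In liver, protein-coding genes took 80.3%, 79.2% and 79.2% of counts in KO (mice A, C and F) and 73.5%, 77.9% and 73.4% in WT (B, D and E). In brain, protein-coding genes took 57.1%, 68.7% and 66.6% of counts in KO and 70.2%, 82.5% and 78.3% in WT, and the brain markers there summed to between 2836 and 3399 CPM in KO and between 3509 and 4134 CPM in WT. The KO brain library of mouse A was the lowest in protein-coding share. The part of these differences in the results below was not tested.

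Gm23935 was among the most counted rows of the table, ranking between 1 and 3 in liver and between 2 and 3 in brain. In WT liver it took 6.88% (mouse B), 7.61% (D) and 5.41% (E) of all counts, and in KO liver 8.66% (A), 8.53% (C) and 9.05% (F). In WT brain it took 3.56%, 3.03% and 3.76%, and in KO brain 3.14%, 3.63% and 3.19%. All liver libraries lay above all brain libraries, and among WT mice 20.9% of the genes tested showed such a separation. Within the liver the genotypes did not overlap, as for 11.4% of the genes tested with KO higher. Within the brain, where 25.7% of the genes tested separated in either direction, the genotypes overlapped for Gm23935.

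CT010467.1 ranked between 5 and 7 in liver and between 4 and 8 in brain. It took 1.51%, 1.93% and 1.68% of counts in WT liver (mice B, D and E) and 1.24%, 1.86% and 1.84% in KO liver (A, C and F). In WT brain it took 0.794%, 0.414% and 0.503%, and in KO brain 1.50%, 0.484% and 0.791%. The highest brain value, that of KO mouse A, exceeded the liver value of the same mouse. The genotypes overlapped in both tissues. Per base of row and on the TMM-scaled CPM scale, Gm23935 in WT liver stood at 1211 CPM per base and CT010467.1 at 9.53 CPM per base. A read of full length exceeds the Gm23935 row, so these levels per base are only roughly comparable.

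**Figure D2:**
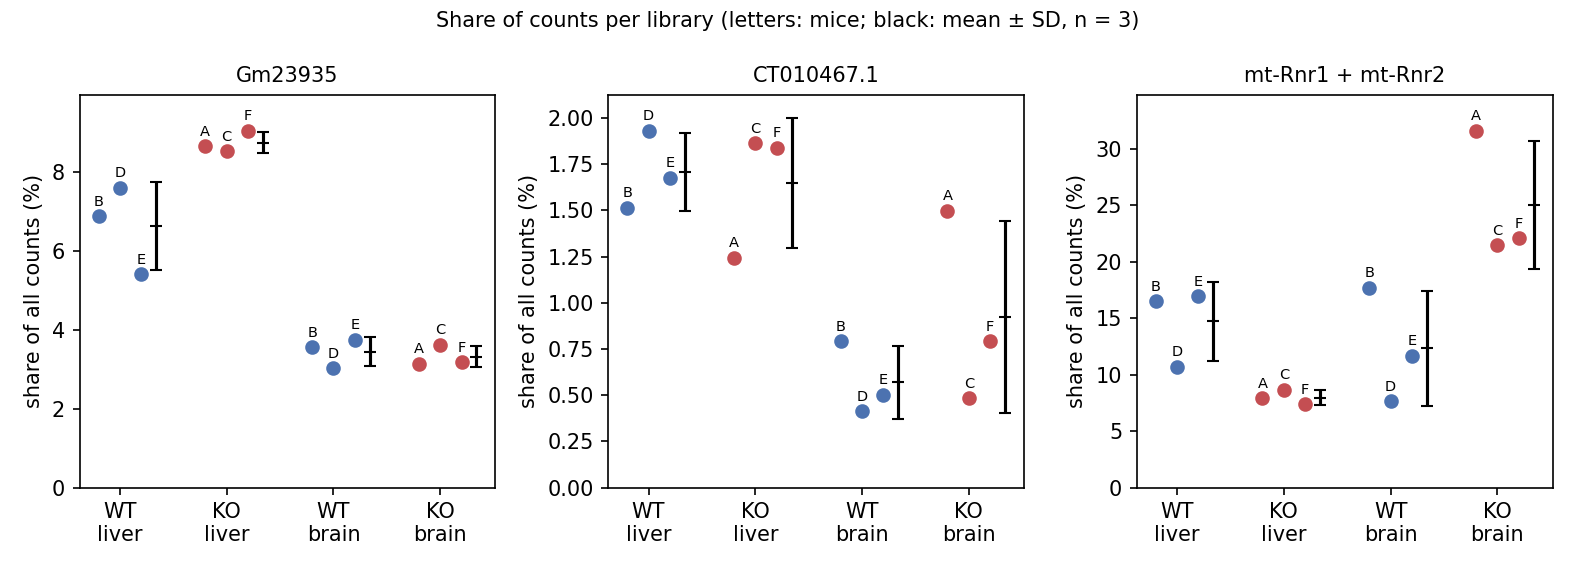
Share of all counts of a library, in percent, of Gm23935, of CT010467.1 and of both mitochondrial rRNAs together, by genotype and tissue. Each point is 1 library with its mouse letter (blue WT, red KO), and black bars give mean ± SD of 3 libraries; the KO livers lie above the WT livers for Gm23935 and below them for mitochondrial rRNA, and the brain of KO mouse A is the highest brain point for CT010467.1 and mitochondrial rRNA.

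Whether the loss of Mettl5 went with a different level of these loci was asked within each tissue. In liver, WT mice had a Gm23935 share of 6.64% ± 1.12 and KO mice of 8.75% ± 0.272 (SD, n = 3 each), a difference of 2.11 percentage points. The exact permutation test gave p = 0.1 for n = 3, two-sided, which is the smallest that 3 against 3 libraries allow, and 0.32 after Benjamini-Hochberg adjustment over the 16 share comparisons between genotypes. For a share of counts, 11.4% of the 14075 genes tested had all KO livers above all WT livers, so many genes showed the separation that Gm23935 showed. On the TMM-scaled CPM scale, where 6.5% of genes had such a separation, Gm23935 also kept it, with 69004 ± 14716 CPM in WT and 84672 ± 1693 CPM in KO (SD, n = 3). The edgeR fit gave a log2 fold change of 0.30 (SE 0.19, adjusted p 0.799), and 0.13 (SE 0.17) without WT mouse E, whose liver had the lowest share. Of all genes tested in liver, 0, or 0%, passed an adjusted p under 0.1 with edgeR, where 1032 had an unadjusted p under 0.05 and DESeq2 called 171.

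The mitochondrial rRNAs also separated the same livers by genotype. Mt-Rnr1 and mt-Rnr2, the small and large mitochondrial rRNAs, together took 16.5%, 10.7% and 16.9% of counts in WT liver and 7.89%, 8.66% and 7.36% in KO liver (exact permutation p = 0.1 for n = 3, adjusted 0.32), where 3.66% of genes had all KO livers below all WT livers. Neither passed in edgeR, with log2 fold changes of -0.50 (adjusted p 0.548) for mt-Rnr1 and -1.39 (adjusted p 0.383) for mt-Rnr2. With their counts left out of the denominator, the share of Gm23935 averaged 7.76% ± 1.09 for WT livers and 9.50% ± 0.234 for KO livers (SD, n = 3 each), still without overlap. The difference was then 1.74 percentage points in place of 2.11.

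CT010467.1 in liver was at 1.71% ± 0.210 in WT and 1.65% ± 0.350 in KO (SD, n = 3), and the exact permutation p was 0.8 for n = 3. By edgeR the log2 fold change came to -0.14 (SE 0.19, adjusted p 0.930). Without KO mouse A, the lowest liver library, the log2 fold change was 0.02. The copies of Gm23935 were close to 0 in liver, with log2 fold changes of 0.09 (SE 0.16) for Gm24270 and 0.08 (SE 0.15) for Gm24187. Gm24245 stood at -0.04 (SE 0.30), Gm25911 at -0.06 (SE 0.16) and Gm23388 at 0.14 (SE 0.48). In brain they were at 0.52 (SE 0.21, unadjusted p 0.0337) for Gm24270, 0.58 (SE 0.23, unadjusted p 0.0321) for Gm24187, 1.02 (SE 0.40, unadjusted p 0.0312) for Gm25911 and 0.73 (SE 0.47, unadjusted p 0.150) for Gm24245, all at an adjusted p of 0.415 or more (edgeR). Gm23388 was not tested in brain.

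In brain, Gm23935 was at 3.45% ± 0.374 in WT and 3.32% ± 0.270 in KO (SD, n = 3), and the exact permutation p was 0.8 for n = 3. With mt-Rnr1 and mt-Rnr2 left out of the denominator the direction turned, to 3.95% ± 0.582 in WT and 4.43% ± 0.296 in KO (SD, n = 3), with an exact permutation p of 0.3 for n = 3. Under TMM scaling edgeR gave a log2 fold change of 0.17 (SE 0.20, adjusted p 0.744), and 0.05 (SE 0.18) without WT mouse D. With no mouse left out, the value became -0.06 when libraries were scaled by their totals alone. That scaling moved the median of all genes tested by -0.23 in brain, so the sign of Gm23935 there depended on it. Of 17188 genes tested in brain, 11, or 0.064%, passed an adjusted p under 0.1, and neither locus was among them.

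CT010467.1 in brain was at 0.570% ± 0.199 in WT and 0.924% ± 0.520 in KO (SD, n = 3), with an exact permutation p of 0.5 for n = 3. On the TMM-scaled CPM scale the WT brains stood at 7695, 3652 and 4629 CPM and the KO brains at 17939, 4998 and 8110 CPM. The largest value, from mouse A, lay far above those of the 5 other brains. The fitted log2 fold change stood at 0.96 (SE 0.47, adjusted p 0.479, edgeR). Without mouse A it was 0.30 (SE 0.33), with an adjusted p of 0.892.

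Other structural RNAs were also high in that brain library. The share of mt-Rnr1 and mt-Rnr2 was 31.6% in the KO brain of mouse A, 21.4% and 22.1% in the other KO brains, and 17.7%, 7.63% and 11.7% in WT brains. The row n-R5-8s1, a small rRNA of the large subunit, took 0.299% there and between 0.103% and 0.224% in the other brains. The 5S rRNA loci together took 0.0241% there and between 0.00357% and 0.0102% in the other brains. Their part in the value of CT010467.1 was not tested.

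**Figure D3:**
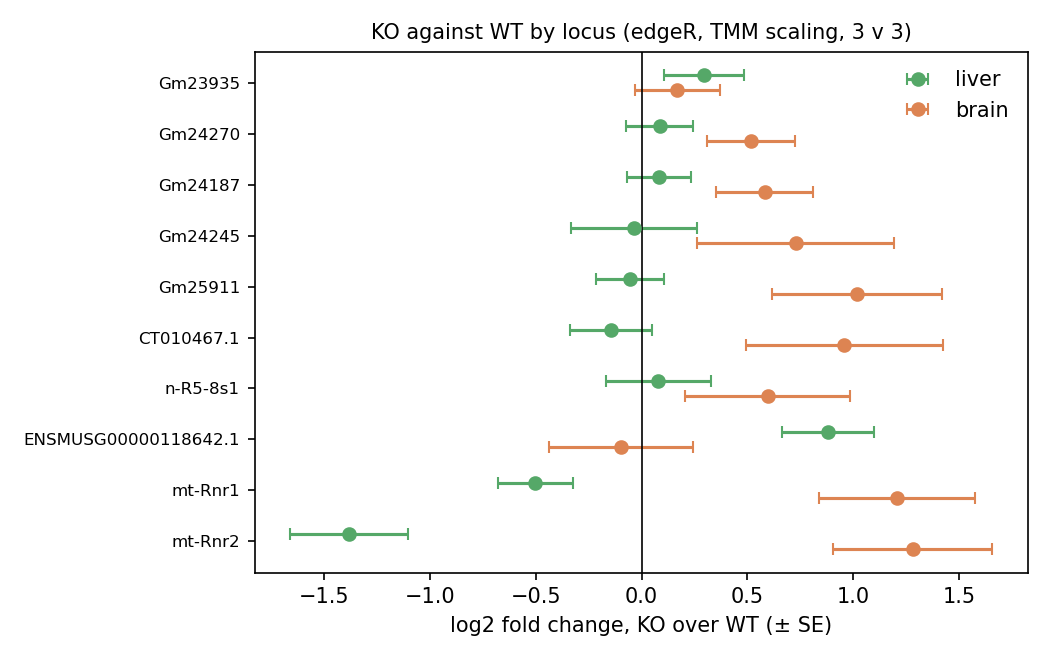
Log2 fold change of KO over WT with its SE (edgeR, TMM scaling, 3 against 3 libraries) in liver (green) and brain (orange), for both loci, the copies of Gm23935 that were tested in both tissues, n-R5-8s1, the antisense row and the mitochondrial rRNAs. Gm23935 and CT010467.1 in liver lie within 2 SE of 0, CT010467.1 in brain has the widest error bar, and mt-Rnr1 and mt-Rnr2 lie on opposite sides of 0 in the 2 tissues.

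The antisense row was the only gene with counts within 50 kb of CT010467.1. It took 0.00372%, 0.00332% and 0.00313% of counts in WT liver and 0.00790%, 0.00441% and 0.00795% in KO liver, with no overlap, as for 11.4% of genes (exact permutation p = 0.1 for n = 3, adjusted 0.32). By edgeR it stood at 0.88 on the log2 scale in liver (SE 0.22, adjusted p 0.428) and at -0.10 in brain (SE 0.34, adjusted p 0.925). For every antisense count there were between 158 and 582 counts of CT010467.1 in liver and between 33.1 and 379 in brain.

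Whether the genotype effect differed between tissues was tested by subtracting the effect in brain from that in liver, which gave 0.16 (SE 0.33, adjusted p 0.930) for Gm23935 and -1.07 (SE 0.56, adjusted p 0.530) for CT010467.1 (edgeR, 12 libraries). Under library totals the value for Gm23935 was 0.46 (adjusted p 0.444), where the median over all genes was 0.32 against 0.04 under TMM scaling. Without KO mouse A the value for CT010467.1 was -0.25 (SE 0.48). Of 18944 genes, 0, or 0%, passed an adjusted p under 0.1 in this fit, where 2004 had an unadjusted p under 0.05 and DESeq2 called 367. With mouse as a block, 68 genes passed, and the values were 0.18 (adjusted p 0.961) for Gm23935 and -0.94 (adjusted p 0.701) for CT010467.1. As a share of counts, Gm23935 was between 4.90 and 5.86 percentage points higher in the liver than in the brain of a KO mouse and between 1.66 and 4.57 percentage points higher in a WT mouse. The groups did not overlap, as for 20.9% of the 18944 genes in the same direction, and the exact permutation p was 0.1 for n = 3, or 0.4 after adjustment over 8 shares.

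For both loci the mean shares differed more between the tissues than between the genotypes. The share of Gm23935 was higher in liver than in brain in 6 of 6 mice, with a ratio between 1.44 (mouse E) and 2.84 (mouse F). The mean was 7.69% ± 1.37 in liver and 3.38% ± 0.300 in brain (SD, n = 6), and the exact sign-flip permutation p was 0.03125 for n = 6 pairs, the smallest that 6 pairs allow. CT010467.1 was higher in liver in 5 of 6 mice, with ratios between 1.91 and 4.67. In the exception, KO mouse A, the ratio was 0.831. The mean was 1.68% ± 0.260 in liver and 0.747% ± 0.402 in brain (SD, n = 6), with an exact sign-flip permutation p of 0.0625 for n = 6 pairs. After Benjamini-Hochberg adjustment over the 8 shares compared, the permutation p was 0.125 for Gm23935 and 0.167 for CT010467.1.

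In WT mice alone, Gm23935 was higher in liver by a log2 fold change of 1.79 (SE 0.35, adjusted p 0.000847) and CT010467.1 by 2.40 (SE 0.35, adjusted p 1.07e-04) under TMM scaling (edgeR). Of the 17694 genes tested, 78.3% passed an adjusted p under 0.1 and 35.4% passed as higher in liver, so both calls fall in a large class. TMM scaling set the sizes. With library totals alone the median of all genes moved by -0.83, the values were 0.94 (adjusted p 0.0189) and 1.58 (adjusted p 0.000921), and the calls split into 3719 higher and 10801 lower in liver in place of 6268 and 7593. Both loci stayed higher in liver under either scaling. In bulk tissue, fewer cells of a type and less RNA per cell cannot be told apart.

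The copies of Gm23935 were higher in liver as well. In WT mice the log2 fold change was 2.31 (SE 0.24) for Gm24270, 2.30 (SE 0.25) for Gm24187, 2.49 (SE 0.43) for Gm24245, 2.95 (SE 0.36) for Gm25911 and 2.67 (SE 0.48) for Gm23388, each at an adjusted p of 0.00047 or less (edgeR). There were between 129 and 287 counts of Gm23935 for each count of Gm24270 over all 12 libraries, a narrower spread than the counts themselves had.

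**Figure D4:**
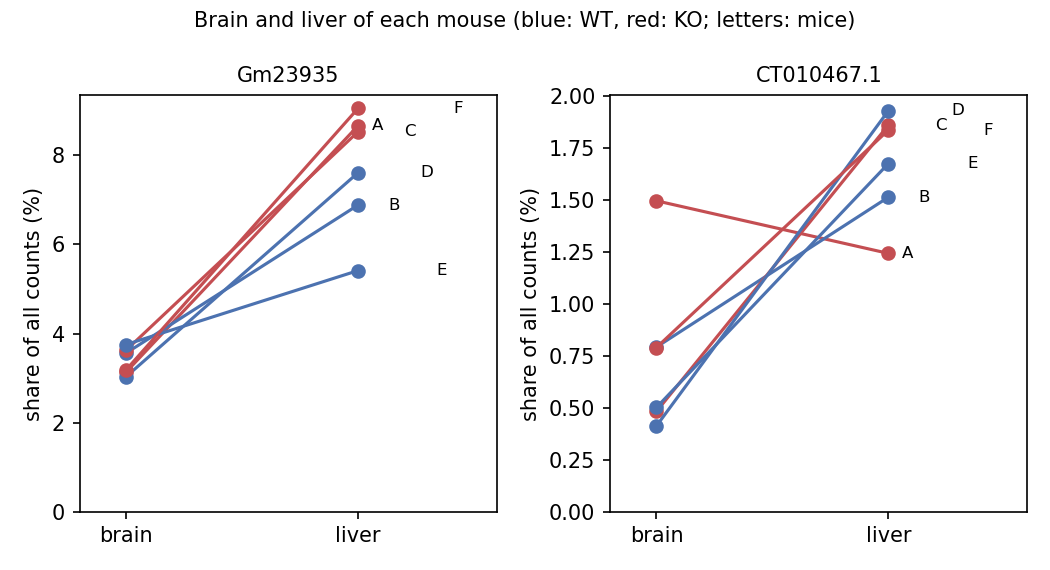
Share of all counts, in percent, of Gm23935 and CT010467.1 in the brain and the liver of each mouse, joined by a line (blue WT, red KO, letters for mice). All 6 lines rise towards liver for Gm23935, and all but that of mouse A rise for CT010467.1.

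The ratio of both loci varied between libraries, and no test of it passed after adjustment. For every count of CT010467.1 there were 4.54, 3.94 and 3.23 counts of Gm23935 in WT liver and 6.96, 4.58 and 4.92 in KO liver, with no overlap (exact permutation p = 0.1 for n = 3, adjusted 0.429 over 15 ratio tests). In brain the ratio was 4.49, 7.33 and 7.47 in WT and 2.10, 7.50 and 4.03 in KO, and the groups overlapped. Between liver and brain within mice the ratio differed by -0.13 on the log2 scale on average (exact sign-flip permutation p = 0.8125 for n = 6 pairs). Over the 12 libraries, with log2 CPM centred on each tissue's mean, the Pearson correlation of the 2 loci was 0.28, 0.20 without the KO brain of mouse A, 0.0083 without the WT liver of mouse E and the WT brain of mouse D, and -0.13 without the brains of KO mouse A and WT mouse D. These libraries share mice, and they differ in depth and in rRNA content, so the correlation is a description.

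The annotated nuclear rRNA rows differed from one another too. The row n-R5-8s1, whose RNA is cut from the same precursor as 18S rRNA, was not consistently higher in liver, with 4 of 6 mice above their brain value. There were between 7.80 and 13.2 counts of CT010467.1 per count of n-R5-8s1 in liver and between 2.49 and 5.01 in brain, with no overlap (exact sign-flip permutation p = 0.03125 for n = 6 pairs, adjusted 0.429 over 15 ratio tests). Under TMM scaling n-R5-8s1 was higher in WT liver by 0.73 (SE 0.32, adjusted p 0.0582, edgeR), and under library totals the value was -0.10. Its direction between tissues therefore depended on the scaling.

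**Figure D5:**
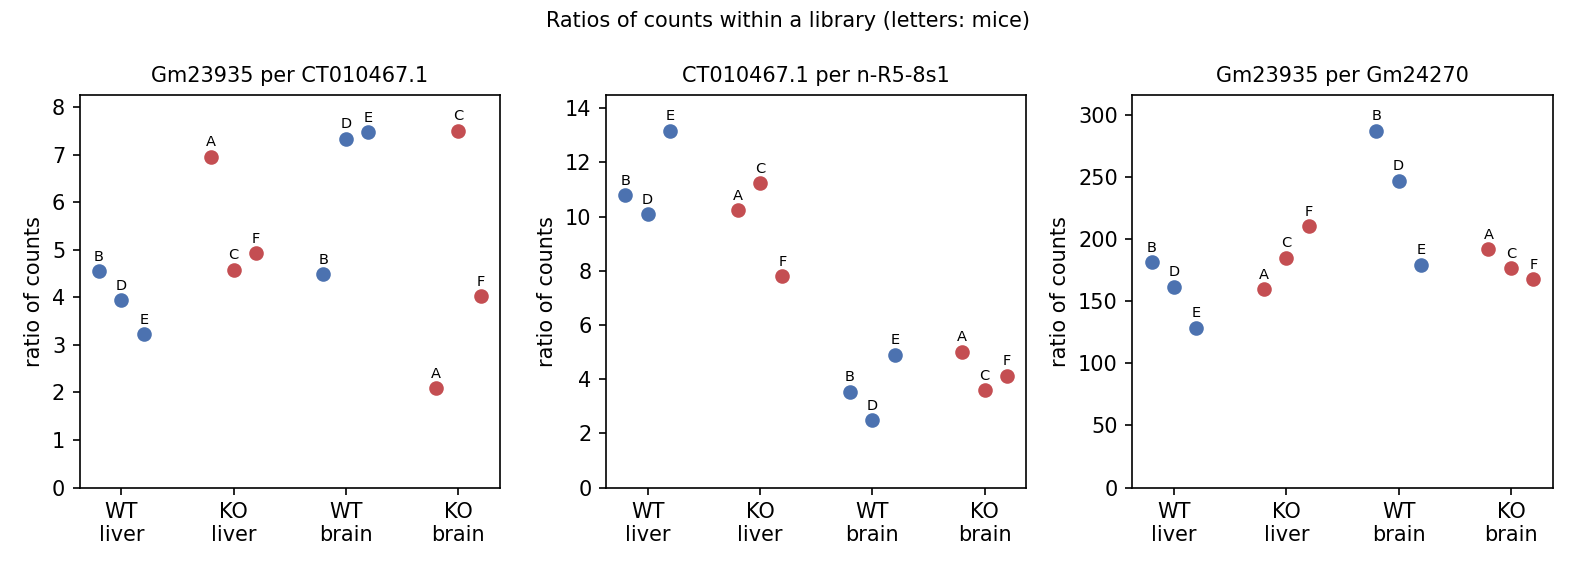
Ratios of counts within each library, for Gm23935 to CT010467.1, CT010467.1 to n-R5-8s1, and Gm23935 to its identical copy Gm24270. Each point is 1 library with its mouse letter (blue WT, red KO); the ratio of CT010467.1 to n-R5-8s1 lies between 7.80 and 13.2 in liver and between 2.49 and 5.01 in brain.

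Of the 353 other rows annotated as nuclear rRNA, 38 passed the filter on low counts in liver and 24 in brain, mostly 5S loci. In liver 36 of the 38 had a log2 fold change below 0 in KO, with a median of -0.51, against a median of 0.00 over all genes. In brain 23 of 24 were above 0, with a median of 1.57, against 0.00 over all genes. None passed an adjusted p under 0.1 in either tissue (edgeR), and 4 in liver and 14 in brain had an unadjusted p under 0.05, as had 7.33% of all genes in liver and 10.97% in brain. Without the KO brain of mouse A the brain median was 0.69 over 27 rows, of which 2 had an unadjusted p under 0.05. The 5S loci are near-identical repeats, so the assignment of reads among their rows is uncertain and the rows are not independent measurements. In liver the smallest p-values belonged to n-R5s194 (-0.82, SE 0.24), n-R5s155 (-0.77, SE 0.22), n-R5s71 (-1.02, SE 0.39) and n-R5s90 (-0.73, SE 0.29). In brain they belonged to n-R5s88 (2.12, SE 0.54), Gm26197 (2.01, SE 0.58), n-R5s90 (1.85, SE 0.64) and n-R5s156 (1.72, SE 0.62). Between the tissues of WT mice, 33 of 36 tested rows were called higher in liver and 3 lower, where 35.4% of all genes tested were called higher and 78.3% were called in either direction.

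Of 29 other structural RNAs on a list of small nuclear, small nucleolar and other abundant noncoding RNAs, 14 were tested in liver and 13 in brain. None passed an adjusted p under 0.1 between genotypes (edgeR), where 0% of all genes passed in liver and 0.064% in brain. An unadjusted p under 0.05 was found for 1 of 14 in liver and 3 of 13 in brain, beside 7.33% and 10.97% of all genes. In liver 10 of 14 were below 0, the median being -0.11 on the log2 scale, and 7 of 14 were below 0, with a median of -0.01, when libraries were scaled by their totals alone. In brain 12 of 13 were above 0, with a median of 0.79, which was 0.29 over 14 RNAs without the KO brain of mouse A. In liver the smallest p belonged to Rn7sk, the RNA that holds the elongation factor P-TEFb inactive, at 0.48 (SE 0.18), followed by Snord118 (-0.38, SE 0.21), Rny1 (-0.30, SE 0.29) and Rny3 (-0.24, SE 0.27). In brain it belonged to Snord13, a small nucleolar RNA that acts in 18S rRNA processing, at 1.80 (SE 0.54), followed by the nuclear paraspeckle RNA Neat1 (-0.39, SE 0.15), the minor spliceosome RNA Rnu12 (1.22, SE 0.49) and the Y RNA Rny1 (1.14, SE 0.55). Between WT liver and WT brain, 5 of 13 were called higher and 3 lower in liver, where 78.3% of all genes were called. The smallest p-values belonged to Neat1 (3.14, SE 0.22), Rny1 (-5.05, SE 0.40), Rny3 (-3.47, SE 0.38) and Rn7sk (-2.04, SE 0.29).

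The mRNAs of RNA polymerase I and its factors, which transcribe the precursor of 18S rRNA, were all tested. None of the 17 passed an adjusted p under 0.1 between genotypes in either tissue (edgeR), where 0% of all genes passed in liver and 0.064% in brain. An unadjusted p under 0.05 was found for 1 in liver and 2 in brain, shares near the 7.33% and 10.97% of all genes. Their median log2 fold change was 0.14 in liver and -0.16 in brain, against 0.00 over all genes in each. Under library totals the medians were 0.22 and -0.38, against 0.09 and -0.23 over all genes, and 2 of 17 were above 0 in brain. In liver the smallest p-values belonged to Twistnb (-0.37, SE 0.15), Polr1a (0.28, SE 0.13), Polr1c (0.31, SE 0.16) and Polr1b (0.29, SE 0.17), all subunits of the polymerase. In brain they belonged to Taf1d, a subunit of the promoter selectivity factor (0.75, SE 0.23), Polr1b (-0.60, SE 0.24), the TATA-binding protein gene Tbp (-0.24, SE 0.14) and Polr1c (-0.28, SE 0.17). Between WT tissues 7 were called higher and 6 lower in liver, a share near the 78.3% of all genes called. Their median there was 0.22 under TMM scaling and -0.62 under library totals, with 9 and 2 of 17 above 0, so no direction is given.

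The genes whose log2 CPM, centred on each tissue's mean, followed the summed counts of both loci most closely over the 12 libraries were Nup93 (Pearson r = 0.89), Ipp (0.88), Bag5 (0.87), Taf10 (0.87) and Rpl7 (0.87), out of 12574 genes tested in both tissues. Without the 2 libraries farthest from the median, WT liver of mouse E and WT brain of mouse D, these became 0.61, 0.65, 0.80, 0.44 and 0.83. The sum was mostly Gm23935, so CT010467.1 was also compared alone, a choice made after its values were seen. Its closest rows were the snRNA gene Gm25939 (0.99), n-R5s115 (0.97), Rnu12 (0.97), n-R5s56 (0.97) and Snord34 (0.96), all genes of small noncoding RNAs. Without the KO brain of mouse A they were 0.98, 0.94, 0.93, 0.92 and 0.96.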

How the data were processed

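Total RNA from liver and brain was made into stranded libraries (SMARTer Stranded Total RNA-Seq Kit v2) and read as 100-base single ends. Per the labels and the study's methods, the authors checked reads with FastQC 0.11.5, trimmed them with Trimmomatic, aligned them to mm10 with STAR 2.7.3a and counted exon reads per gene with reverse-stranded featureCounts. The deposited values are raw counts per gene without normalisation. How reads with several matches were handled is not given in the sources used here; featureCounts leaves them out by default, which would lower the counts of repeated loci. GENCODE M21, used for symbols (55141 genes matched) and sequences, holds an older version of CT010467.1 than the deposited table.

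Counts were fitted with edgeR 4.0.16 in R 4.3.3 (filterByExpr, TMM, robust quasi-likelihood F test, Benjamini-Hochberg over all genes, call at an adjusted p under 0.1), per tissue on 6 libraries, on the 6 WT libraries for tissues, and on 12 for the difference in effect. SE were derived from F. CPM are counts divided by the TMM-scaled library size. Shares are percent of all counts in a library, with 95% Wilson intervals, and were compared by exact permutation or sign-flip tests, two-sided (scipy). Replicates are separate mice. Alternatives were DESeq2 1.42.0, other scaling, no filter, other denominators and each mouse left out.

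Members and lists were chosen with earlier results of these data known. The named genes are both loci, genes overlapping or within 50 kb of them, the 4 list members with the smallest p per tissue, the 5 genes most like the summed loci, mt-Rnr1, mt-Rnr2 and Mettl5. Named outside this rule, with values known, are the copies of Gm23935, n-R5-8s1 and the rows closest to CT010467.1 alone. The labels give liver and brain of a mouse the same letter, which pairs the tissues; deviations of paired libraries from their group means correlated between -0.039 (mouse B) and 0.14 (mouse F) over 12574 genes.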

Additional observations from a re-analysis of the deposited data

Results flagged for a closer look

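The mitochondrial rRNAs separated the genotypes in opposite directions in the 2 tissues, without passing a test within either. The joint share of mt-Rnr1 and mt-Rnr2 differed by -6.75 percentage points between KO and WT liver and by 12.7 between KO and WT brain. The groups overlapped in neither tissue (exact permutation p = 0.1 for n = 3, adjusted 0.32, in each). In liver, 3.66% of the genes tested separated with KO lower. In brain, 25.7% separated in either direction, and the share with KO higher alone was not counted. In edgeR the adjusted p was 0.548 for mt-Rnr1 and 0.383 for mt-Rnr2 in liver, and 0.355 for each in brain. The liver minus brain difference of a mouse lay between -23.7 and -12.8 percentage points in KO and between -1.20 and 5.28 in WT (exact permutation p = 0.1 for n = 3, the smallest possible, adjusted 0.4 over 8 shares). With mouse as a block, the liver effect minus the brain effect of mt-Rnr2 was -2.59 on the log2 scale (adjusted p 0.0539, edgeR). It was 1 of 68 genes with an adjusted p under 0.1 in that fit, which was an alternative. In the main fit, without the block, the value was -2.64 (adjusted p 0.132), and 0 of 18944 genes passed. For mt-Rnr1 the values were -1.77 with the block (adjusted p 0.262) and -1.68 without it (adjusted p 0.237).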

How the results depend on the processing

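Of 106 alternative fold changes and shares, 96 kept direction and side of the threshold, and of 41 alternative numbers of calls, 21 were within 1.5 times the reported number. The threshold for shares was a permutation p under 0.05. Shares compared between genotypes could not change side, as 3 against 3 libraries allow no p under 0.1. For liver against brain, leaving out a mouse had to change the side, as 5 pairs allow no p under 0.0625. KO against WT in liver gave 0 calls, and 171 with DESeq2, 443 with no filter, 3 with all 12 libraries and 82 with a term for Y-linked transcripts; leaving out a mouse gave 0 to 87 (without WT mouse D). In brain, 11 calls became 267 with DESeq2, 1000 with no filter and 4 with library totals, and 2 (without WT mouse E) to 23 (without KO mouse C) with a mouse left out. The liver effect minus the brain effect gave 0 calls, and 367 with DESeq2, 183 with no filter, 68 with the replicate block by mouse, and 0 to 86 (without WT mouse D). In none of these was either locus called between genotypes. The block changed no call of either locus.

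The direction reversed in 4 cases, and the cause was not tested: Gm23935 in brain with library totals (-0.057), CT010467.1 in liver without KO mouse A (0.016, with a mouse left out from -0.28 to 0.016), the liver effect minus brain effect of KO for Gm23935 without WT mouse E (-0.070, with a mouse left out from -0.070 to 0.37), and the brain share of both loci together without WT mouse D, -0.0653 in place of 0.221 percentage points; it ran from -0.0653 to 0.389 with a mouse left out, and was 1.09 without mt-Rnr1 and mt-Rnr2 and 1.15 without mitochondrial genes in the denominator. Liver minus brain for both loci together was 5.24 percentage points (p = 0.03125, exact sign-flip permutation, 0.125 after adjustment over 8 shares). It was 4.90 to 5.72 with a mouse left out, where 5 pairs allow no p under 0.0625.

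Counting error was small beside the spread between mice. Identical copies, a row shorter than a full-length read and removal of rRNA before sequencing limit what a level means.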
